A study of Danio rerio with 36 samples.

Results

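Whole skin was compared with whole skeletal muscle of adult zebrafish (Danio rerio) by RNA-seq of total tissue lysate, called input. The comparison rests on 3 skin input and 3 muscle input libraries, 6 of the 36 libraries of the series. These libraries were taken by tissue label and by the absence of any pulldown step. The tissues compared were chosen with earlier results of these data known. Every fish carried the AngioTag transgene Tg(kdrl:egfp-2a-rpl10a3xHA)y530, in which the vascular promoter of kdrl drives EGFP and a ribosomal protein Rpl10a with an HA tag in endothelial cells. The transgene serves pulldown of endothelial ribosomes elsewhere in the series, was shared by skin and muscle fish, and was not acted on in an input library. Each library came from the organs of 4 fish, dissected fresh or flash frozen. The labels call the 3 libraries of a tissue biological replicates, and the p-values below measure the spread between such pools. No age beyond adult was given in the sources used here. The header of skin library 2 carries another letter than those of skin libraries 1 and 3, and it was assigned because it was the only input column left for that tissue. The comparison was also made without it.

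The skin of a teleost is a living, mucus-covered epidermis over a basement membrane, a dermis with bony scales and pigment cells, and little or no keratinised dead layer. Basal keratinocytes attach to the basement membrane by hemidesmosomes, keratinocytes hold to each other by desmosomes, adherens junctions and tight junctions, and mucous cells, club cells, ionocytes and neuromast hair cells lie among them. Trunk muscle of fish is mostly fast fibre, which contracts on calcium released from the sarcoplasmic reticulum and draws ATP from creatine phosphate and glycolysis, with a thin superficial layer of slow, oxidative fibre. Skin and muscle share blood vessels, nerves, blood cells and connective tissue, and the input libraries hold the RNA of all of these cells at once.

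Library totals ranged between 14916571 and 18791465 counts in skin and between 18566761 and 26255588 counts in muscle. The 100 genes with most counts took 56.9 to 63.9% of a skin library, against 80.8 to 83.6% of a muscle library. Levels are given as CPM, counts per 1000000 of a library total scaled by TMM (trimmed mean of M values, edgeR), whose factors were 1.53, 1.81 and 1.83 in skin libraries 1 to 3, against 0.75, 0.52 and 0.50 in muscle libraries 1 to 3. A gene was called where the quasi-likelihood F-test of edgeR, Benjamini-Hochberg adjusted over all 16060 tested genes, gave an adjusted p below 0.05 and a log2 fold change, skin over muscle, of at least 1.2 in size. By TMM the median log2 fold change over all tested genes was 0.07, and by library totals alone it was 1.602, so every direction below is relative to the median gene. The shift was 1.54 for the median gene, so a gene lower in skin by less than that changes sign when counts are divided by library totals alone.

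Under this rule 3348 genes were higher in skin, which is 20.8% of the tested genes, and 3003 were lower in skin, which is 18.7%. Skin-high genes reached further: 1393 were higher in skin by at least 3 on the log2 scale and 476 by at least 5. Lower in skin by at least 3 were 783, and 39 by at least 5. Where at least 10 counts in every library were required, 1253 of the 3348 skin-high calls remained, against 2052 of the 3003 skin-low calls. Many skin-high genes thus had few counts in a library, and the part of this in the size of their fold changes was not tested. All 3 skin libraries lay above all 3 muscle libraries for 33.3% of the tested genes, and all 3 muscle libraries lay above all 3 skin libraries for 29.3%. With library totals alone in place of TMM the split was 91.3% higher in skin against 8.75% lower, where TMM gave 52.7% against 47.3%. All 3348 skin-high calls were kept by library totals, 958 of the 3003 skin-low calls were kept, and none was called in the opposite direction. Library totals raise the log2 fold change of the median gene by 1.54. The kept skin-high calls and the lack of turned calls follow from this shift and are no check of those calls.

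**Figure D1:**
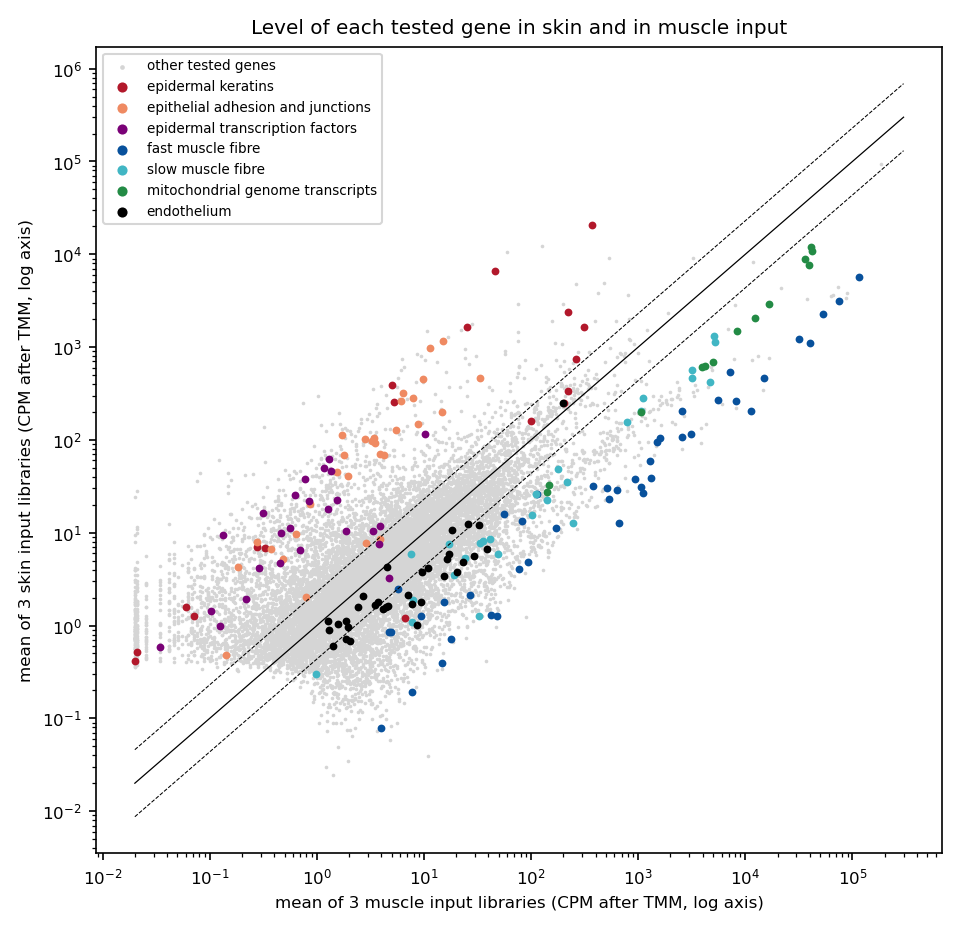
Each point is 1 of the 16060 tested genes, with its mean over the 3 muscle input libraries on the x axis and its mean over the 3 skin input libraries on the y axis, both in CPM after TMM on log axes. The solid line marks equal levels and the dashed lines the fold change of 1.2 on the log2 scale. Of the genes in colour, 14 of 18 keratins and 29 of 30 junction genes were called higher in skin, and 42 of 43 fast fibre genes and all 13 tested mitochondrial transcripts lower in skin.

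The defining markers of the labelled tissues were present. All 6 keratinocyte markers (TP63, krt4, krt5, cyt1, cdh1, epcam) were higher in skin, and all 6 tested fast fibre markers were lower in skin, but cyt1 was low also in skin, with 0.44, 0.69 and 0.41 CPM. The osteoblast gene sp7 was below the count filter and bglap had no count in any of the 6 libraries, while the ionocyte factors foxi3a and foxi3b had 8 counts or fewer in every skin library and 0 in every muscle library. Fast fibre RNA was not absent from skin. The 45 genes of the fast fibre list took 2.11, 4.88 and 1.45% of the counts of skin libraries 1 to 3, against 22.2, 21.0 and 22.9% in muscle. Skin library 2 held the most, and the part of this RNA in the other differences was not tested.

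Keratins, which form the intermediate filaments of epithelial cells, were mostly higher in skin. Of 18 tested keratin genes, 14 were higher in skin and none lower, with a median log2 fold change of 4.24 against 0.07 over all genes, and the list of 20 genes took 5.47, 5.43 and 7.23% of the counts in skin, against 0.153, 0.0709 and 0.0976% in muscle. The gene with most reads among them, krt91, had 23700, 18070 and 20660 CPM in skin, against 537, 334 and 228 CPM in muscle. Its skin libraries lay far above its muscle libraries, and its log2 fold change was 5.83 ± 0.58 (SE, adjusted p = 9.11e-06). The gene krt5 had 4915, 4611 and 10160 CPM in skin, against 81.9, 17.5 and 37.5 CPM in muscle. It ranged more than krt91 in both tissues, with skin library 3 highest, and its log2 fold change of 7.17 ± 0.73 (SE, adjusted p = 1.09e-05) was the largest of the tested keratins. The keratin krt97 had 1913, 1340 and 1627 CPM in skin, against 50.05, 12.02 and 14.2 CPM in muscle, a log2 fold change of 5.99 ± 0.61 (SE, adjusted p = 1.18e-05). In bulk tissue, fewer cells of a type and less RNA per cell cannot be told apart, which applies to every gene group described here.

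Other keratins had smaller fold changes. The superficial epidermal keratin krt4 had 1948, 2041 and 3170 CPM in skin, against 206, 148 and 309 CPM in muscle, with a log2 fold change of 3.43 ± 0.42 (SE, adjusted p = 3.77e-05). For krt15 the fold change was 2.38 ± 0.31 (SE, adjusted p = 6.94e-05) and for krt8, a keratin of simple epithelia, 1.51 ± 0.32 (SE, adjusted p = 0.00187), both with every skin library above every muscle library. The keratins krt18a.1 and krt18b, partners of krt8 in simple epithelia, had log2 fold changes of 0.29 (adjusted p = 0.544) and 0.68 (adjusted p = 0.0549) and were not called, nor were krt94 at 0.59 (adjusted p = 0.097) and krt92 at -2.40 (adjusted p = 0.0629). The value of krt92 rested on muscle library 3, with 0.874, 1.34 and 17.7 CPM in muscle against 0.308, 0.538 and 2.80 CPM in skin, and was 0.21 without that library, while it was called lower in skin without skin library 3, muscle library 1 or muscle library 2.

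Cell to cell adhesion was the list with the highest median, 4.55, and 29 of its 30 tested genes were higher in skin. Tight junctions were represented by claudins, the proteins that seal the space between cells. The claudin cldni had 699, 1111 and 1124 CPM in skin, against 17.4, 10.17 and 6.95 CPM in muscle, and cldnb had 1051, 951 and 1487 CPM in skin, against 20.1, 12.13 and 13.1 CPM in muscle. Both sets of libraries were widely apart, with log2 fold changes of 6.41 ± 0.47 (SE, adjusted p = 1.59e-06) for cldni and 6.26 ± 0.41 (SE, adjusted p = 1.03e-06) for cldnb. The epithelial adhesion protein epcam had 321, 429.8 and 604 CPM in skin, against 9.61, 9.87 and 9.62 CPM in muscle, and its muscle libraries were almost level while its skin libraries differed, giving a log2 fold change of 5.54 ± 0.35 (SE, adjusted p = 9.67e-07). E-cadherin, encoded by cdh1 and the core of adherens junctions, gave 4.52 ± 0.36 (SE, adjusted p = 2.55e-06). Desmosomal genes followed, with the plakophilin pkp3a at 5.15 ± 0.33 (SE, adjusted p = 9.67e-07) and the membrane protein perp at 3.81 ± 0.30 (SE, adjusted p = 2.07e-06). The 1 tested member that was not called, the polarity gene llgl2, also had every skin library above every muscle library, at 1.14 ± 0.21 (SE, adjusted p = 0.000856), and was called without skin library 2, at 1.25.

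Attachment to the basement membrane was less uniform. Of 17 tested genes, 9 were higher in skin and 5 lower. The integrin β4 gene ITGB4, one chain of the hemidesmosome receptor, had 378, 448 and 282 CPM in skin, against 20.2, 12.43 and 18.3 CPM in muscle, a log2 fold change of 4.44 ± 0.34 (SE, adjusted p = 1.81e-06). Its partner itga6b, the integrin α6, gave 3.99 ± 0.28 (SE, adjusted p = 1.41e-06), and the hemidesmosome collagen col17a1b had 47.3, 52.3 and 49.9 CPM in skin, against 1.498, 0.617 and 0.840 CPM in muscle. Levels of col17a1b were low in muscle and even across the skin pools, at 5.60 ± 0.32 (SE, adjusted p = 8.01e-07). The collagen of anchoring fibrils, col7a1, gave 4.47 ± 0.32 (SE, adjusted p = 1.37e-06), and the linker plecb, a plectin, 1.96 ± 0.29 (SE, adjusted p = 0.000166). The 5 genes lower in skin were frem3 at -3.63, fras1 at -1.98 and frem1b at -1.90, which encode proteins of the Fraser complex beneath epithelia, DST at -1.43, a cytoskeletal linker, and 1 of 2 genes named for the tetraspanin CD151 (ENSDARG00000038288) at -1.86. The other CD151 gene (ENSDARG00000068629) was higher in skin at 3.39, so the 2 copies went opposite ways. Only frem3 among these 5 stayed called when library totals replaced TMM, and DST then had a value of 0.12. DST was also just short of the fold limit without skin library 3, at -1.196.

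Of 20 tested barrier and envelope genes, 17 were higher in skin and none lower, with a median log2 fold change of 3.65. The ictacalcin gene icn, an S100-type calcium-binding protein, had 12520, 4393 and 10310 CPM in skin, against 485, 477 and 651 CPM in muscle. Skin library 2 held less than the other skin libraries but was still far above muscle, and the log2 fold change was 4.08 ± 0.52 (SE, adjusted p = 5.27e-05). Its relative icn2 gave 6.11 ± 0.53 (SE, adjusted p = 3.75e-06). Annexin genes, whose products bind membranes in a calcium-dependent way, were also higher, with ANXA1 at 3.96 ± 0.37 (SE, adjusted p = 6.86e-06) and anxa2a at 2.75 ± 0.37 (SE, adjusted p = 7.77e-05), as was s100a10b, the S100 partner of annexin A2, at 3.34 ± 0.41 (SE, adjusted p = 4.49e-05).

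**Figure D2:**
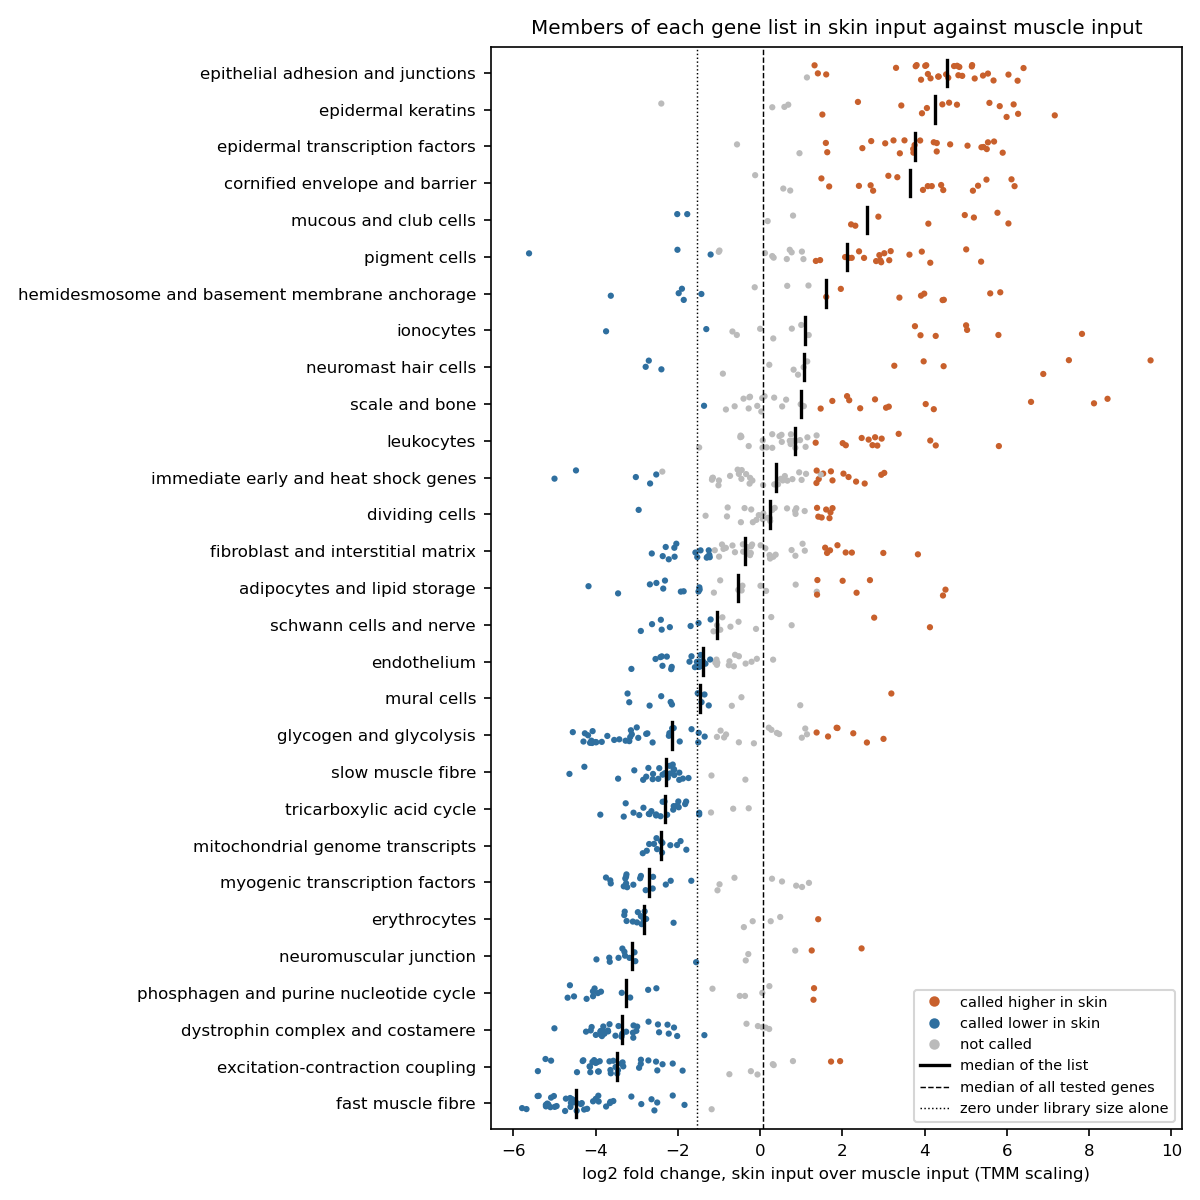
Each point is a tested member of a gene list, with its log2 fold change of skin input over muscle input on the x axis and the lists down the y axis in order of their medians. Orange points were called higher in skin, blue points lower in skin, grey points were not called, and black bars mark list medians. The dashed line is the median of all tested genes at 0.07, and the dotted line, 1.54 below zero, marks where zero would lie with library totals alone.

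Most transcription factors of each tissue differed in the direction of its structural genes. Of 25 tested epidermal regulators, 23 were higher in skin and none lower, with a median log2 fold change of 3.76. TP63, the p63 factor that specifies stratified epithelium, had 112, 99.01 and 139 CPM in skin, against 13.6, 9.04 and 7.94 CPM in muscle, and its skin pools were even, with a log2 fold change of 3.51 ± 0.30 (SE, adjusted p = 3.39e-06). The homeobox gene dlx3b had 55.0, 57.6 and 73.8 CPM in skin, against 1.87, 1.03 and 0.992 CPM in muscle, at 5.54 ± 0.32 (SE, adjusted p = 8.15e-07). Larger spread was seen in the Ets factor elf3, with 43.3, 22.3 and 82.4 CPM in skin, against 1.12, 0.925 and 1.45 CPM in muscle. Skin library 3 was highest and skin library 2 lowest for elf3, and its log2 fold change was 5.38 ± 0.50 (SE, adjusted p = 5.72e-06). A second epithelial Ets factor, EHF, gave 5.90 ± 0.46 (SE, adjusted p = 2.06e-06), and grainyhead-like grhl2a, a regulator of junction genes, 5.43 ± 0.35 (SE, adjusted p = 1.03e-06). The AP-2 factor TFAP2C gave 5.51 ± 0.41 (SE, adjusted p = 1.65e-06), and ESRP1, an epithelial splicing regulator and not itself a transcription factor, 5.04 ± 0.38 (SE, adjusted p = 1.81e-06). KLF5 was among the smaller differences at 1.598 ± 0.22 (SE, adjusted p = 8.49e-05). The 2 regulators not called were klf17 at 0.96 (adjusted p = 0.0286), which was called at 1.41 without muscle library 1, and zgc:113348 at -0.56 (adjusted p = 0.101).

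Of 26 tested myogenic regulators, 18 were lower in skin and none higher, and the median log2 fold change was -2.70. In 3 that were not called, every skin library lay above every muscle library. The determination factor myod1 had 8.02, 8.67 and 4.70 CPM in skin, against 50.9, 66.5 and 90.2 CPM in muscle, with no overlap of the tissues, at -3.28 ± 0.32 (SE, adjusted p = 8.40e-06). The later factors MYOG, myogenin, and myf6 gave -3.63 ± 0.60 (SE, adjusted p = 0.00035) and -2.90 ± 0.45 (SE, adjusted p = 0.000218), the first on levels below 1 CPM in skin. MYF5 gave -3.23 ± 0.57 (SE, adjusted p = 0.000581). The cofactor MEF2A, which binds muscle gene promoters together with MyoD proteins, had 42.3, 47.0 and 35.6 CPM in skin, against 335, 449 and 406 CPM in muscle. It was the most read of the list and the spread within each tissue was small, at -3.25 ± 0.28 (SE, adjusted p = 4.06e-06). MEF2C gave -3.32 ± 0.32 (SE, adjusted p = 7.35e-06). TBX15, a T-box factor, gave -2.61 ± 0.30 (SE, adjusted p = 2.56e-05). With library totals alone 13 of the 26 stayed called lower in skin and 5 were called higher, and TBX15 was among those no longer called.

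**Figure D3:**
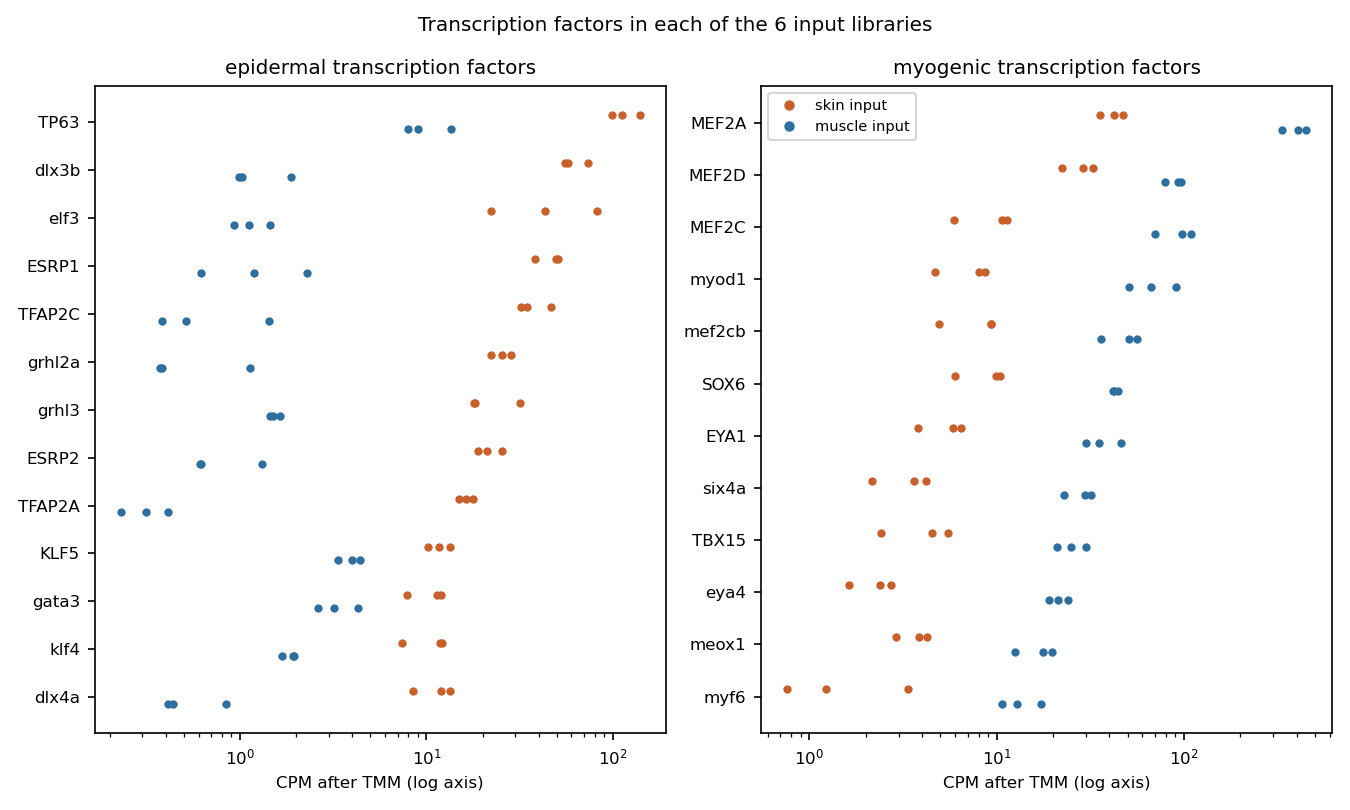
Points are CPM after TMM on a log axis in each of the 3 skin input libraries (orange, drawn above) and each of the 3 muscle input libraries (blue, drawn below), for 13 epidermal and 12 myogenic regulators, drawn from the 14 of each list with the highest mean level. The other 3 are not reported here. The tissues do not overlap for any of the 25 genes drawn, where skin lay above for 33.3% of all tested genes and muscle for 29.3%, and over the full lists 1 of 25 epidermal and 4 of 26 myogenic regulators overlap. Over the full lists skin lies above muscle for 24 epidermal and 3 myogenic regulators, and muscle above skin for 19 myogenic regulators. TP63 lies between 99.01 and 139 CPM in skin against 7.94 to 13.6 CPM in muscle, and MEF2A between 35.6 and 47.0 CPM in skin against 335 to 449 CPM in muscle.

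The contractile apparatus of fast fibre had the lowest median of the muscle lists. Of 43 tested genes, 42 were lower in skin and none higher, with a median log2 fold change of -4.47. The α-actin gene actc1b, which forms the thin filament, had 5227, 9292 and 2656 CPM in skin, against 87020, 120400 and 140000 CPM in muscle. The fast myosin light chain mylpfa had 2601, 5187 and 1659 CPM in skin, against 54200, 79290 and 91920 CPM in muscle. In both, skin library 2 was the highest of skin and skin library 3 the lowest, and log2 fold changes were -4.34 ± 0.73 (SE, adjusted p = 0.00039) for actc1b and -4.58 ± 0.69 (SE, adjusted p = 0.000186) for mylpfa. The same order of skin libraries held for the thin filament regulators. The troponin gene TNNT3 (ENSDARG00000068457) gave -4.72 ± 0.64 (SE, adjusted p = 8.24e-05), TNNC2 gave -4.997 ± 0.66 (SE, adjusted p = 7.22e-05) and the tropomyosin tpma -5.18 ± 0.79 (SE, adjusted p = 0.000201). TNNI2 (ENSDARG00000013752), the inhibitory troponin, had 173, 372 and 62.0 CPM in skin, against 8330, 13760 and 11530 CPM in muscle, at -5.79 ± 0.71 (SE, adjusted p = 4.21e-05), the largest fold of the list. Myosin-binding proteins mybpc2b and mybphb gave -5.39 ± 0.48 (SE, adjusted p = 4.74e-06) and -5.37 ± 0.66 (SE, adjusted p = 4.09e-05). Skin pools differed more among themselves than muscle pools did in the genes given here by library, and 37 of the 43 stayed called lower in skin with library totals alone.

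Slow fibre genes were lower in skin by less. Of 26 tested, 24 were lower in skin and none higher, with a median log2 fold change of -2.28. With library totals alone 5 of the 26 stayed called lower and 1 was called higher. Myoglobin, mb, the oxygen store of oxidative fibre, had 733, 352 and 192 CPM in skin, against 1871, 6050 and 6082 CPM in muscle. The tissues did not overlap, at -3.46 ± 0.62 (SE, adjusted p = 0.000618). The slow troponin TNNC1 had 884, 610.2 and 217 CPM in skin, against 995, 4789 and 3754 CPM in muscle, and here skin library 1 came close to muscle library 1, at -2.48 ± 0.63 (SE, adjusted p = 0.00605). The light chain myl10 overlapped, with 2161, 1290 and 460.5 CPM in skin, against 1573, 8061 and 5639 CPM in muscle, and its log2 fold change of -1.97 ± 0.66 (SE, adjusted p = 0.0253) was no longer called without skin library 2 (-1.91, adjusted p = 0.0655), skin library 3 (-1.501, adjusted p = 0.0861), muscle library 2 (-1.45, adjusted p = 0.104) or muscle library 3 (-1.88, adjusted p = 0.0542). The slow myosin heavy chain smyhc1 had 6.83, 7.29 and 8.43 CPM in skin, against 6.12, 16.8 and 28.6 CPM in muscle, and it was not called at -1.18 ± 0.41 (SE, adjusted p = 0.0306), but was called without muscle library 1, at -1.604. TNNI1 was not called, at -0.36 ± 0.29 (SE, adjusted p = 0.319). Per 100 counts of the fast list, the slow list had 51.0, 19.2 and 25.8 counts in skin libraries 1 to 3, against 3.37, 8.71 and 6.95 in muscle. Every skin library was thus above every muscle library in this ratio. Whether the slow list counts in skin came from slow fibre was not tested.

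**Figure D4:**
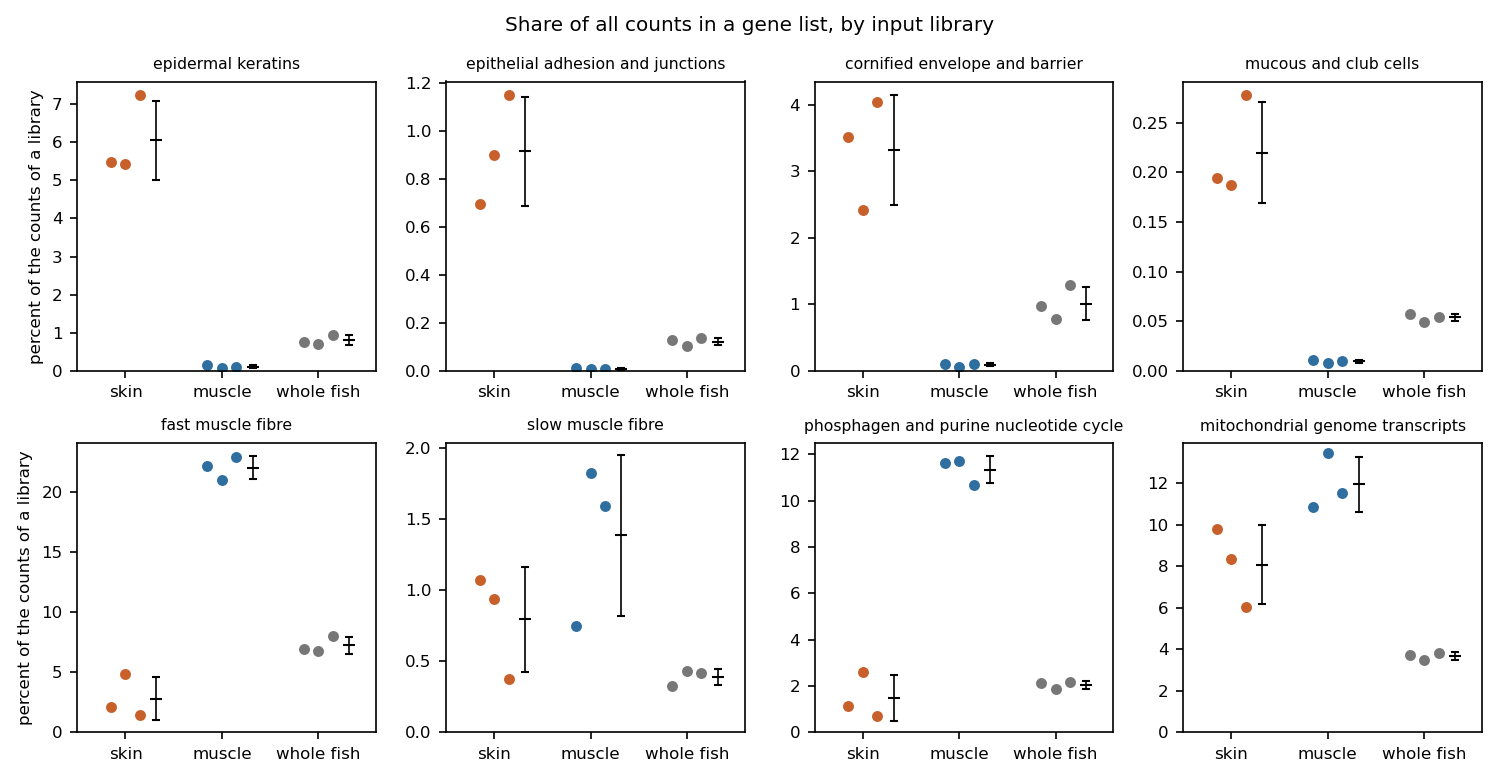
Each panel gives the percent of all counts of a library that fell in a gene list, for skin input (orange), muscle input (blue) and, as context, whole fish input (grey). Points are the 3 libraries and bars the mean with SD. Keratins take 5.43 to 7.23% of skin counts against 0.0709 to 0.153% of muscle counts, and fast fibre genes 1.45 to 4.88% against 21.0 to 22.9%, while slow fibre and mitochondrial shares lie closer together.

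Calcium handling, which couples excitation to contraction, had 35 of 43 tested genes lower in skin and 2 higher, with a median of -3.47. Parvalbumins, which bind calcium in the cytosol of fast fibre, were among its most read genes. The gene pvalb4 had 4641, 6253 and 2391 CPM in skin, against 49620, 82800 and 85740 CPM in muscle, and pvalb1 had 158, 470.2 and 28.2 CPM in skin, against 8047, 7899 and 8520 CPM in muscle. For pvalb1 the skin pools differed widely, library 2 highest and library 3 lowest, yet none neared muscle, and log2 fold changes were -4.04 ± 0.65 (SE, adjusted p = 0.000296) for pvalb4 and -5.22 ± 0.87 (SE, adjusted p = 0.000367) for pvalb1. The calcium pump atp2a1l of the sarcoplasmic reticulum gave -5.41 ± 0.58 (SE, adjusted p = 1.60e-05), the calcium store protein CASQ1 (ENSDARG00000038716) -5.08 ± 0.53 (SE, adjusted p = 1.28e-05) and the release channel ryr1b -4.08 ± 0.36 (SE, adjusted p = 4.43e-06). The 2 genes higher in skin were the pump ATP2A2 (ENSDARG00000005122) at 1.72 ± 0.28 (SE, adjusted p = 0.00032) and the inositol trisphosphate receptor ITPR1 at 1.95 ± 0.32 (SE, adjusted p = 0.000366), both also in wide use outside muscle. At the neuromuscular junction, 11 of 16 tested genes were lower in skin, with the acetylcholine receptor subunits chrna1 at -3.30 ± 0.30 (SE, adjusted p = 4.70e-06) and chrnd at -3.66 ± 0.33 (SE, adjusted p = 5.17e-06), the kinase musk at -3.67 ± 0.32 (SE, adjusted p = 3.89e-06) and the esterase ACHE at -3.04 ± 0.24 (SE, adjusted p = 2.36e-06). The 2 higher in skin were ligands with roles in other tissues too, NRG1, a neuregulin, at 2.47 ± 0.28 (SE, adjusted p = 2.71e-05) and agrn, agrin, at 1.25 ± 0.27 (SE, adjusted p = 0.00208), and agrn was just below the fold limit without skin library 1 (1.099) or muscle library 2 (1.07). In the dystrophin complex and costamere, which tie the contractile apparatus to the membrane, 36 of 41 tested genes were lower in skin and none higher, among them desma, desmin, at -3.88 ± 0.32 (SE, adjusted p = 3.17e-06) and the muscle caveolin cav3 at -3.85 ± 0.40 (SE, adjusted p = 1.20e-05). The caveolar coat gene cavin4a gave -3.80 ± 0.40 (SE, adjusted p = 1.34e-05) and smyd1a, of a methyltransferase that assists myosin assembly, -5.004 ± 0.53 (SE, adjusted p = 1.57e-05).

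Energy supply differed along the same lines. Of 20 tested genes of the phosphagen and purine nucleotide cycles, 13 were lower in skin, and that list took 1.14, 2.61 and 0.723% of the counts of skin libraries 1 to 3, against 11.6, 11.7 and 10.7% in muscle. Creatine kinases accounted for most of it, with ckma at 3107, 5511 and 1445 CPM in skin, against 67080, 95300 and 96040 CPM in muscle. Every skin pool was far below every muscle pool for ckma, at -4.68 ± 0.72 (SE, adjusted p = 0.000211), and ckmb gave -4.53 ± 0.75 (SE, adjusted p = 0.000364). The mitochondrial creatine kinase CKMT2 (ENSDARG00000069615) gave -4.63 ± 0.49 (SE, adjusted p = 1.47e-05), the myokinase AK1 -4.03 ± 0.50 (SE, adjusted p = 4.37e-05) and the AMP deaminase ampd1 -4.07 ± 0.38 (SE, adjusted p = 6.59e-06). Higher in skin were 2, among them adssl at 1.297 ± 0.24 (SE, adjusted p = 0.000771), and adssl fell short of the fold limit without muscle library 1, at 1.18. Of 53 tested genes of glycogen use and glycolysis, 33 were lower in skin and 7 higher, with a median of -2.14 and 22 and 15 called in those directions by library totals alone. The triose dehydrogenase GAPDH had 3122, 6015 and 1769 CPM in skin, against 50300, 79320 and 68810 CPM in muscle, at -4.18 ± 0.67 (SE, adjusted p = 0.000293), and aldoaa gave -3.99 ± 0.51 (SE, adjusted p = 5.67e-05) and eno3 -3.16 ± 0.36 (SE, adjusted p = 2.64e-05).

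All 13 transcripts of the mitochondrial genome matched by name were lower in skin by TMM, with a median of -2.41. By library totals alone only 2 of the 13 were called so. A further 2 symbols of the list matched no gene by name. Whether their transcripts are among the tested genes without a symbol was not determined, so the values here cover the 13 only. The summed share of the 13 was 9.82, 8.37 and 6.03% in skin libraries 1 to 3, against 10.9, 13.4 and 11.53% in muscle. The cytochrome oxidase subunit mt-co1 had 13530, 11490 and 7791 CPM in skin, against 32440, 45440 and 47700 CPM in muscle, at -1.94 ± 0.52 (SE, adjusted p = 0.00817), and mt-co2 at -1.79 ± 0.54 (SE, adjusted p = 0.0142) was no longer called without muscle library 2 (-1.65, adjusted p = 0.0516). Cytochrome b, mt-cyb, gave -2.38 ± 0.55 (SE, adjusted p = 0.00336). Nuclear genes of the tricarboxylic acid cycle were lower in skin in 24 of 27 tested cases and higher in none, with a median of -2.33, led in level by MDH2 at -3.32 ± 0.41 (SE, adjusted p = 4.12e-05) and IDH2 at -3.89 ± 0.45 (SE, adjusted p = 2.80e-05), and 6 of the 27 stayed called lower and 1 was called higher with library totals alone.

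Of 89 tested members of families with muscle and non-muscle copies, 53 were lower in skin and 17 higher, against 39 and 28 by library totals alone. Over all tested genes 18.7% were lower in skin and 20.8% higher. The share of a member within its family does not depend on how whole libraries are scaled, and it was taken for 9 families. In some the main member was the same in both tissues. Of aldolase counts, aldoaa took 83.5, 83.9 and 79.4% in skin libraries 1 to 3, against 88.7, 89.0 and 87.5% in muscle, and GAPDH exceeded GAPDHS in every library. The family sums were chosen after the values had been seen and carry no test. Of the counts of 7 actin genes, the cytoplasmic β-actins actb1 and actb2 took 66.9, 53.9 and 80.4% in skin libraries 1 to 3, against 4.19, 2.61 and 3.16% in muscle. Filamin counts came from flna and flnb for 96.3, 93.7 and 93.3% in skin, against 35.7, 24.7 and 17.6% in muscle, where the muscle filamin flnca made up most of the rest. The non-muscle α-actinins, which cross-link actin outside the sarcomere, were 31.5, 21.2 and 52.9% of α-actinin counts in skin, against 0.513, 0.378 and 0.800% in muscle. Among calcium pumps, the fast fibre genes atp2a1 and atp2a1l were 64.8, 72.2 and 69.4% in skin, against 97.6, 91.9 and 92.7% in muscle. Caveolins cav1 and cav2 were 94.7, 94.4 and 97.4% of caveolin counts in skin, against 61.4, 44.0 and 60.5% in muscle. For tropomyosins the fast gene tpma was 30.2, 64.4 and 24.3% in skin, against 83.2, 84.4 and 84.0% in muscle. No skin library overlapped a muscle library in any of these 6 shares, and skin library 2 was on the muscle side of the other skin libraries for actins, α-actinins, calcium pumps and tpma, as it was for the fast fibre share.

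Single members gave these values. The β-actin actb2 had 8830, 9227 and 8976 CPM in skin, against 3223, 2852 and 3752 CPM in muscle, at 1.46 ± 0.39 (SE, adjusted p = 0.00796), and flna, the widespread filamin, 2.62 ± 0.30 (SE, adjusted p = 2.83e-05), against -3.36 ± 0.42 (SE, adjusted p = 5.07e-05) for flnca. Actinin actn4 gave 2.13 ± 0.26 (SE, adjusted p = 4.44e-05) and the fast fibre actinin actn3b -4.47 ± 0.39 (SE, adjusted p = 4.40e-06). The glycolytic GAPDHS gave 1.65 ± 0.36 (SE, adjusted p = 0.00229) while GAPDH was lower in skin, and GAPDHS made up 9.70, 5.49 and 27.1% of the counts of both genes in skin, against 0.265, 0.130 and 0.276% in muscle. The pyruvate kinase gene PKM was lower in skin at -4.26 ± 0.47 (SE, adjusted p = 1.97e-05), and its copy pkma, at 1.14 ± 0.30 (SE, adjusted p = 0.00782), was not called but had every skin library above every muscle library, and it was called without skin library 1, skin library 2 or muscle library 3, at up to 1.40. Near-identical copies can exchange reads, so the values of single actins, creatine kinases and parvalbumins are less certain than the family totals.

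**Figure D5:**
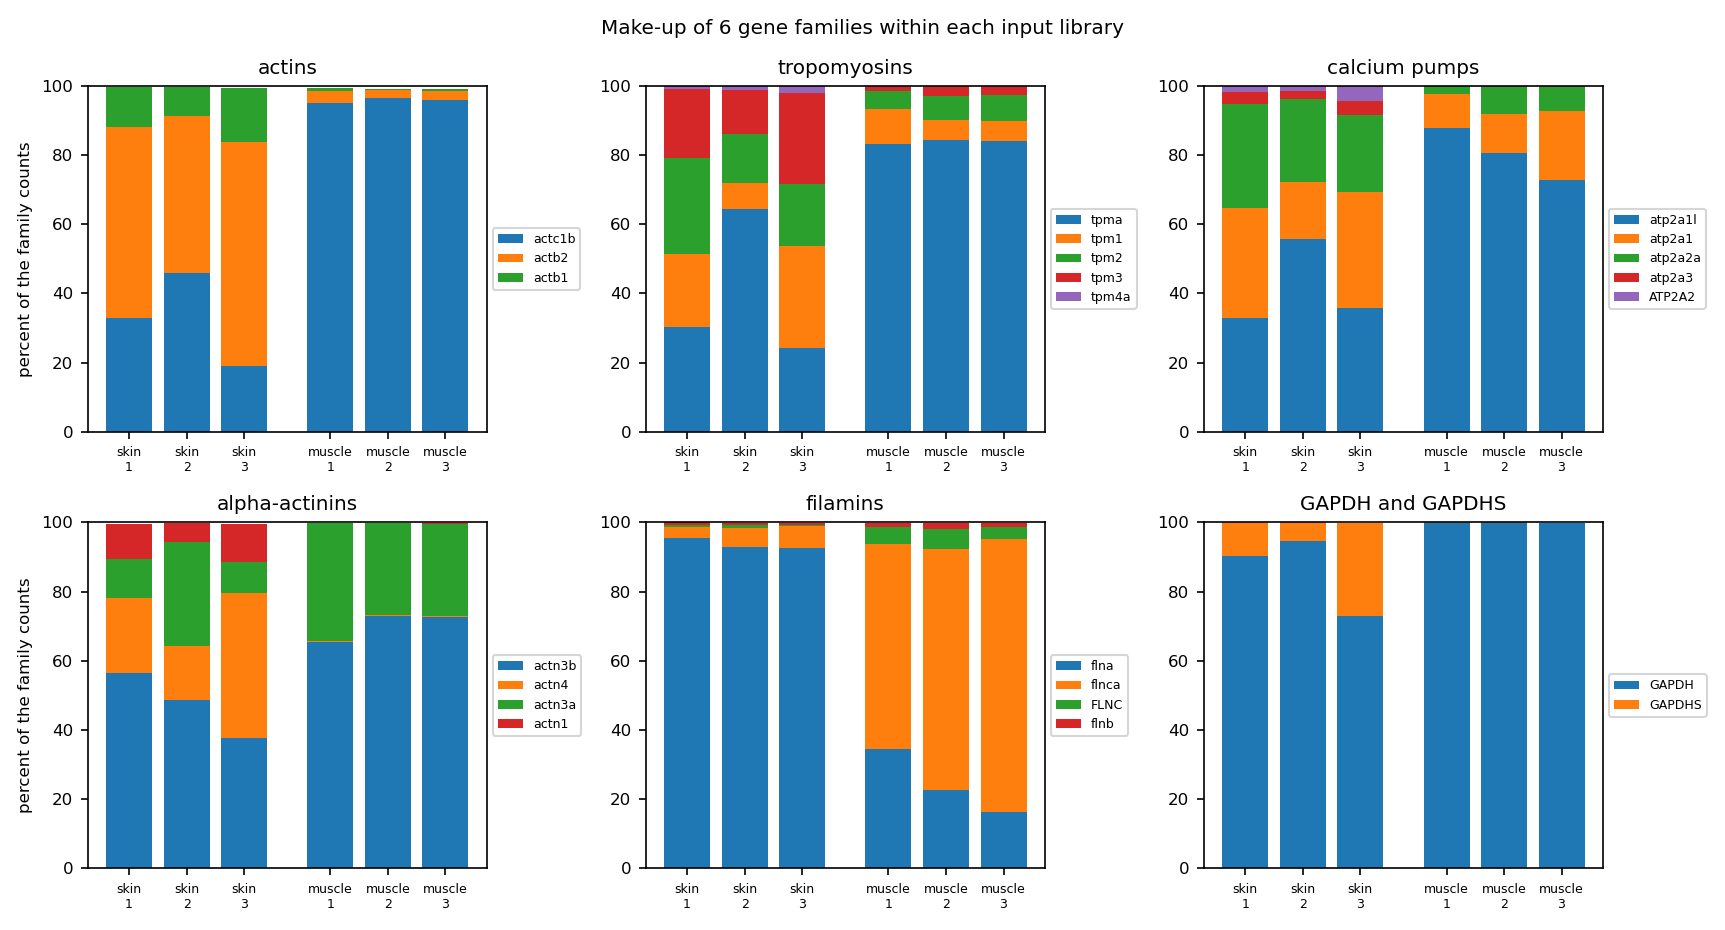
Stacked bars give the make-up of 6 gene families, as percent of the family counts within a library, for skin input libraries 1 to 3 (left) and muscle input libraries 1 to 3 (right). Members under 1% in all 6 libraries are not drawn. The β-actins actb1 and actb2 make up 53.9 to 80.4% of actin counts in skin against 2.61 to 4.19% in muscle, and flna is the main filamin in skin, flnca in muscle.

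Pigment cells of the dermis added a further skin group. Of 32 tested pigment genes, 19 were higher in skin and 3 lower, with a median of 2.11. The shares over all tested genes were 20.8% higher and 18.7% lower. The melanin enzyme TYRP1 (ENSDARG00000056151) had 5.77, 17.7 and 6.88 CPM in skin, against 0.624, 1.64 and 2.14 CPM in muscle. Skin library 2 was highest by a wide margin, and the log2 fold change was 2.82 ± 0.51 (SE, adjusted p = 0.000663). The melanosome gene pmela had the same order of skin libraries, at 3.17 ± 0.51 (SE, adjusted p = 0.000305). The xanthophore gene gch2, of pteridine synthesis, gave 3.02 ± 0.33 (SE, adjusted p = 1.76e-05), and paics, of purine synthesis, 2.53 ± 0.21 (SE, adjusted p = 3.33e-06) on even skin levels. The iridophore gene pnp4a overlapped between tissues, with 4.89, 15.96 and 8.61 CPM in skin, against 2.62, 3.39 and 5.57 CPM in muscle, and its call at 1.35 ± 0.41 (SE, adjusted p = 0.0162) was lost without skin library 2 (0.86, adjusted p = 0.0718) or without muscle library 1 (1.11, adjusted p = 0.0750). The 3 lower in skin were SOX10 at -1.204, which marks Schwann cells as well, gja5b at -2.01, and OCA2, with 3 counts in all of skin against 73 in all of muscle, a ratio of 0.0177 (0.00356 to 0.0537, exact 95% interval, counting error only). SOX10 was below the fold limit without skin library 1 (-1.04), skin library 3 (-1.15) or muscle library 1 (-1.04), and also by DESeq2 and with other filters, so its call is at the limit.

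Scale and bone genes gave 13 of 29 tested higher in skin and 1 lower, PHEX at -1.36, with a median of 0.99. Without skin library 1 (-1.197) or muscle library 2 (-1.18) PHEX was short of the fold limit and no gene of the list was lower. By library totals alone 25 of the 29 were higher in skin and none lower, with a median of 2.52. All 16060 tested genes had 9986 higher and 958 lower under that scaling, with a median of 1.602. TMM called 20.8% of all tested genes higher in skin and 18.7% lower. A gene named COL10A1 (ENSDARG00000101535), a collagen of scale and bone-forming cells, had 485, 148 and 253 CPM in skin, against 1.62, 1.03 and 0.458 CPM in muscle. It was nearly absent from muscle, at 8.12 ± 0.61 (SE, adjusted p = 1.81e-06). The other COL10A1 gene (ENSDARG00000054753) overlapped and was not called, at 1.06 ± 0.47 (SE, adjusted p = 0.0768), unless skin library 2 was left out, at 1.41. CTSK, the collagen-degrading cathepsin of osteoclasts, gave 1.76 ± 0.27 (SE, adjusted p = 0.000208), and IFITM5, an osteoblast membrane protein, 4.03 ± 0.51 (SE, adjusted p = 4.94e-05). SPARC, a matrix protein of bone and of connective tissue generally, had 463, 575 and 453 CPM in skin, against 533, 547 and 708 CPM in muscle and was not called, at -0.26 ± 0.29 (SE, adjusted p = 0.464).

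For connective tissue, the side with more genes called depended on the scaling. Of 50 tested fibroblast and matrix genes, 8 were higher in skin and 15 lower, with a median of -0.37, and with library totals alone 25 were higher and none lower. Among all 16060 tested genes 20.8% were higher in skin and 18.7% lower, and with library totals alone 9986 were higher and 958 lower. The 2 chains of type I collagen were at like levels, with col1a1a at 356, 218 and 275 CPM in skin, against 286, 189.8 and 366 CPM in muscle. The tissues overlapped, at 0.01 ± 0.32 (SE, adjusted p = 0.978) for col1a1a and 0.13 ± 0.34 (SE, adjusted p = 0.773) for col1a2, and both changed sign without skin library 1 or without muscle library 2. The proteoglycan lum, lumican, had 48.8, 104 and 56.0 CPM in skin, against 24.8, 15.8 and 15.9 CPM in muscle, higher in skin at 1.88 ± 0.33 (SE, adjusted p = 0.000534), whereas DCN, decorin, had 54.5, 86.4 and 70.8 CPM in skin, against 156, 139 and 160.3 CPM in muscle, without overlap the other way at -1.104 ± 0.26 (SE, adjusted p = 0.00341), short of the fold limit unless skin library 2 was left out, at -1.23. The tendon gene TNMD, tenomodulin, had 3.61, 6.75 and 3.53 CPM in skin, against 21.8, 22.5 and 20.9 CPM in muscle, at -2.22 ± 0.27 (SE, adjusted p = 3.63e-05), and SCX, scleraxis, the tendon transcription factor, gave -2.08 ± 0.28 (SE, adjusted p = 7.40e-05). These 2 genes were picked from the list after their values were seen, and neither stayed called with library totals alone.

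Secretory and transporting cells of the epidermis were seen through few tested genes. Of 12 tested mucous and club cell genes, 8 were higher in skin and 2 lower, lgals2a at -1.77 and itln1 at -2.02, of which itln1 was no longer called without skin library 1, skin library 2 or muscle library 3. The gel-forming mucin muc5.2 had 524, 235 and 357 CPM in skin, against 8.99, 2.47 and 5.27 CPM in muscle, at 6.04 ± 0.52 (SE, adjusted p = 3.96e-06). AGR2, a disulfide isomerase needed to fold mucins, had 248, 203 and 439 CPM in skin, against 4.93, 1.95 and 17.2 CPM in muscle. Muscle library 3 was the highest of muscle for AGR2 but far below any skin library, at 5.199 ± 0.69 (SE, adjusted p = 7.51e-05), and its relative agr1 gave 5.77 ± 0.52 (SE, adjusted p = 4.86e-06). Of 16 tested ionocyte genes out of 32, 7 were higher in skin and 2 lower, the sodium pump subunits atp1a1a.4 at -3.75 and atp1b1b at -1.31, the second short of the fold limit without skin library 1, at -1.16. The ammonium channel rhcgl1 had 26.6, 24.8 and 30.6 CPM in skin, against 0.686, 0.514 and 2.98 CPM in muscle, at 4.27 ± 0.47 (SE, adjusted p = 1.90e-05), its relative rhbg gave 3.77 ± 0.38 (SE, adjusted p = 9.78e-06) and the carbonic anhydrase ca2 3.90 ± 0.34 (SE, adjusted p = 3.86e-06). Of 15 tested hair cell genes out of 25, 6 were higher in skin and 3 lower, the transduction channel genes tmc1 at -2.40 and tmc2b at -2.71 and EYA1 at -2.78, which is a myogenic regulator too. The shares over all tested genes were 20.8% higher in skin and 18.7% lower. By library totals alone 11 of the 15 were higher and 1 lower, and neither tmc1 (-0.87) nor tmc2b (-1.19) was called. Higher were, among others, the calcium-binding s100t at 3.98 ± 0.34 (SE, adjusted p = 3.88e-06) and pvalb8, a parvalbumin of hair cells, with 59.6, 36.3 and 77.5 CPM in skin, against 0.312, 0.514 and 0.153 CPM in muscle. Expression of pvalb8 thus ran opposite to the muscle parvalbumins, at 7.51 ± 0.45 (SE, adjusted p = 8.71e-07).

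Leukocyte genes were higher in skin in 13 of 36 tested cases and lower in none, with a median of 0.86. Over all tested genes 20.8% were higher in skin and 18.7% lower. By library totals alone 32 of the 36 were higher and none lower, with a median of 2.37. The most read leukocyte genes serve antigen presentation. The class II invariant chain cd74a had 1372, 822 and 1035 CPM in skin, against 162, 201 and 219.9 CPM in muscle, and cd74b 597, 447 and 540.1 CPM in skin, against 63.1, 86.4 and 78.5 CPM in muscle. Skin exceeded muscle in every library of both, at 2.47 ± 0.33 (SE, adjusted p = 7.34e-05) for cd74a and 2.80 ± 0.29 (SE, adjusted p = 1.28e-05) for cd74b, and the class II gene mhc2dab gave 2.64 ± 0.31 (SE, adjusted p = 3.39e-05). The T cell genes lck, a kinase of the receptor, and cd4-1, the helper co-receptor, gave 2.96 ± 0.46 (SE, adjusted p = 0.000245) and 4.27 ± 0.45 (SE, adjusted p = 1.44e-05), the macrophage gene MPEG1 2.08 ± 0.26 (SE, adjusted p = 4.57e-05) and the leukocyte GTPase rac2 2.85 ± 0.22 (SE, adjusted p = 2.09e-06). The common leukocyte marker ptprc was at 0.75 (adjusted p = 0.0462) and the neutrophil gene mpx at -0.28 (adjusted p = 0.644), neither called. The gene cd4-1 was picked after its values were seen.

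Endothelial and mural cell genes were mostly lower in skin by TMM. Of 33 tested endothelial genes, 20 were lower in skin and none higher, with a median of -1.40. The gene kdrl, a receptor of vascular growth factor whose promoter drives the transgene, had 4.93, 6.07 and 4.43 CPM in skin, against 15.1, 13.9 and 20.1 CPM in muscle, at -1.67 ± 0.22 (SE, adjusted p = 7.69e-05). The Notch ligand dll4 gave -2.54 ± 0.34 (SE, adjusted p = 7.36e-05) and the endothelial claudin cldn5b -1.45 ± 0.29 (SE, adjusted p = 0.0013). These fold changes are about as large as the shift between scalings, so that by library totals alone 1 of the 33 was called lower and 4 higher, and cldn5b changed sign to 0.15. For comparison, library totals alone called 9986 of all 16060 tested genes higher in skin and 958 lower, and TMM called 20.8% and 18.7%. The median of the endothelial list by library totals was 0.15, against 1.602 over all tested genes. The list took 0.0465, 0.0761 and 0.0640% of the counts in skin, against 0.0398, 0.0258 and 0.0295% in muscle. It includes cav1, which had a log2 fold change of 1.89 by library totals alone. The share without cav1 was not taken, and the cells that cav1 came from were not tested. Mural cell genes, of pericytes and vascular smooth muscle, gave 10 of 14 tested lower in skin and foxc1b higher, at 3.19 ± 0.28 (SE, adjusted p = 4.66e-06), with acta2 at -2.69 ± 0.37 (SE, adjusted p = 8.76e-05) and rgs5a at -1.43 ± 0.31 (SE, adjusted p = 0.0023), and by library totals alone 2 were lower and 2 higher, rgs5a changing sign to 0.18. Without muscle library 3 rgs5a was short of the fold limit, at -1.13.

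Erythrocyte genes were lower in skin in 12 of 17 tested cases, and by library totals alone 11 stayed called so and 4 were called higher. The globin hbaa1 had 480.1, 91.9 and 263 CPM in skin, against 2362, 2595 and 1273 CPM in muscle. Skin library 2 was lowest and the tissues did not overlap, at -2.90 ± 0.56 (SE, adjusted p = 0.0011), and the erythroid carbonic anhydrase cahz and the heme enzyme alas2 gave -3.31 ± 0.56 (SE, adjusted p = 0.000446) and -2.997 ± 0.53 (SE, adjusted p = 0.000561). The only erythrocyte gene higher in skin by TMM was the heme synthesis gene hmbsb, at 1.41 ± 0.40 (SE, adjusted p = 0.0106). Of 19 tested genes of Schwann cells and nerve, 8 were lower in skin and 2 higher, with a median of -1.05, but by library totals alone 1 was lower and 5 higher, with a median of 0.57. The higher ones were mpzl2b, with 57.4, 64.0 and 59.8 CPM in skin, against 3.68, 1.44 and 5.04 CPM in muscle, and the neuregulin receptor erbb3b at 2.77. The myelin gene mbpa had 33.9, 51.1 and 29.4 CPM in skin, against 223, 245 and 239 CPM in muscle, at -2.63 ± 0.29 (SE, adjusted p = 1.85e-05), and by library totals alone it was short of the fold limit at -1.07. Adipocyte genes were split, with 7 of 27 tested higher in skin and 11 lower, against 11 higher and 2 lower by library totals alone. Over all 16060 tested genes 20.8% were higher in skin and 18.7% lower, and by library totals alone 9986 were higher and 958 lower. The fatty acid synthase FASN was higher at 2.35 ± 0.25 (SE, adjusted p = 1.53e-05), while fabp4a, a fatty acid carrier of adipocytes, and GPD1 (ENSDARG00000043180), a glycerol phosphate dehydrogenase, were lower at -1.86 ± 0.30 (SE, adjusted p = 0.000291) and -4.17 ± 0.38 (SE, adjusted p = 5.31e-06). By library totals alone fabp4a had a value of -0.28 and was not called.

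Genes of dividing cells differed little by TMM, with 7 of 29 tested higher in skin, bub1bb lower at -2.96, and a median of 0.24. Over all tested genes 20.8% were higher in skin. By library totals alone 20 of the 29 were higher in skin and none lower, with a median of 1.69. The replication helicase gene mcm2 had 7.22, 6.34 and 7.88 CPM in skin, against 3.12, 0.514 and 2.75 CPM in muscle, at 1.69 ± 0.41 (SE, adjusted p = 0.00472), and mcm5 gave 1.76 ± 0.45 (SE, adjusted p = 0.00613), while PCNA, at 0.85 ± 0.21 (SE, adjusted p = 0.00446), had no overlap but was short of the fold limit. Without skin library 1 or without muscle library 2, the count higher in skin was 4. Of 44 tested immediate early and heat shock genes, 12 were higher in skin and 5 lower, against 28 and 2 by library totals alone. Among all 16060 tested genes 20.8% were higher in skin and 18.7% lower, and by library totals alone 9986 were higher and 958 lower. The 5 lower by TMM became 12 without skin library 3 and 3 without muscle library 3. Higher in skin were the AP-1 genes fosab at 2.54 ± 0.40 (SE, adjusted p = 0.000264) and fosb at 3.02 ± 0.41 (SE, adjusted p = 8.65e-05), the stress-related factor cebpd at 1.38 ± 0.31 (SE, adjusted p = 0.00265) and the chaperone hsp90ab1 at 1.76 ± 0.30 (SE, adjusted p = 0.000481). Lower in skin were the inducible chaperones hspa1b, hsp70.2, hsp70l and hspb9 and the nuclear receptor nr4a1, of which hsp70l was no longer called without skin library 1 (adjusted p = 0.0721) or muscle library 3 (adjusted p = 0.0666). The gene hspa1b had 0.881, 1.44 and 9.66 CPM in skin, against 21.3, 49.8 and 318 CPM in muscle. Library 3 was the highest of each tissue for hspa1b, at -5.002 ± 1.103 (SE, adjusted p = 0.00248), a value that ranged between -6.70 and -3.12 when 1 library was left out. It was highest also for hsp70.2, which overlapped at -2.68 ± 0.95 (SE, adjusted p = 0.0332) and was no longer called without skin library 1, skin library 2 or muscle library 3, by DESeq2 or in 1 fit of 9 input libraries.

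By size of change among well-read named genes, those highest in skin over muscle were itln4, enam, paplnb, COL10A1, lgals4, fabp1b.2, pvalb8, ponzr2, krt5 and MSMO1. The lectin gene itln4 had 60.5, 9.74 and 13.2 CPM in skin and 1 count in all of muscle, a ratio of 925 (166 to 36600, exact 95% interval, counting error only). The gene of the enamel matrix protein enamelin, enam, had 40.2, 15.8 and 52.9 CPM in skin and 3 counts in all of muscle, a ratio of 466 (159 to 2260). Both skin levels were uneven, with library 1 highest for itln4 and library 3 for enam. The sterol synthesis enzyme MSMO1 had 1094, 1017 and 2366 CPM in skin, against 12.5, 5.34 and 14.1 CPM in muscle, at 7.12 ± 0.57 (SE, adjusted p = 2.60e-06), the galectin lgals4 gave 7.86 ± 0.50 (SE, adjusted p = 9.67e-07) and the fatty acid carrier fabp1b.2 7.62 ± 0.45 (SE, adjusted p = 8.15e-07). Papilin-like paplnb and ponzr2 gave 8.35 ± 0.58 (SE, adjusted p = 1.28e-06) and 7.38 ± 0.32 (SE, adjusted p = 5.87e-07). The lipocalin-type prostaglandin D synthase ptgdsb.1 took a mean of 2.11% of skin counts, with 12610, 11340 and 12930 CPM in skin, against 162, 145 and 71.7 CPM in muscle. Its skin pools were almost level, at 6.61 ± 0.55 (SE, adjusted p = 3.29e-06), and the unnamed locus si:dkey-193p11.2 was of similar size, at 7.46 ± 0.63 (SE, adjusted p = 3.50e-06).

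The same rule gave as furthest below in skin gsdf, igfn1.3, TNNI2, ACTA1, METTL21C, atp2a1l, mybpc2b, mybphb, CELA1 and pvalb1. The lysine methyltransferase METTL21C had 1.06, 1.05 and 0.788 CPM in skin, against 33.6, 62.4 and 46.4 CPM in muscle, with narrow ranges, at -5.62 ± 0.32 (SE, adjusted p = 8.01e-07). A skeletal α-actin gene ACTA1 (ENSDARG00000055618) gave -5.68 ± 0.48 (SE, adjusted p = 3.28e-06), and igfn1.3, of an immunoglobulin and fibronectin domain family of muscle, -6.21 ± 0.57 (SE, adjusted p = 5.41e-06). Genes known from other organs were gsdf, a growth factor known from fish gonad, with 0.132, 0.478 and 0.642 CPM in skin, against 69.3, 3.80 and 40.1 CPM in muscle, and CELA1, a pancreatic elastase, with 0.0881, 0.687 and 2.80 CPM in skin, against 92.0, 30.2 and 21.6 CPM in muscle. Muscle library 1 was highest of all libraries for both, and the values were -6.41 ± 0.91 (SE, adjusted p = 0.000116) and -5.27 ± 0.84 (SE, adjusted p = 0.000271). A list of 17 exocrine pancreas genes was drawn up after these values had been seen, so its counts are a description and no test. Of these genes, 15 were tested and all 15 were lower in skin, against 18.7% of all tested genes. The list took 0.0335, 0.147 and 0.600 counts per 10000 in skin libraries 1 to 3, against 5.87, 1.33 and 0.974 in muscle libraries 1 to 3. The part of such RNA in other muscle values was not tested.

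The gene with most counts in all 6 libraries, ENSDARG00000080337, has no symbol in the name tables used. It took 20.4, 13.1 and 14.4% of the counts of skin libraries 1 to 3, against 10.18, 9.65 and 11.7% in muscle, and it was not called, at -0.96 ± 0.67 (SE, adjusted p = 0.247). The long non-coding RNA malat1, which stays in the nucleus, had 10070, 8156 and 6383 CPM in skin, against 9621, 13170 and 12310 CPM in muscle. It overlapped between tissues and was not called, at -0.51 ± 0.43 (SE, adjusted p = 0.336). When both ENSDARG00000080337 and the mitochondrial transcripts were left out of the counts, 3419 genes were higher in skin and 2923 lower.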

How the data were processed

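RNA of total lysate was made into poly(A)-selected, non-directional SMART-seq V4 libraries. The authors aligned reads to GRCz11 with HISAT2 within the lcdb-wf workflow and deposited raw counts per gene on the Ensembl 99 annotation. The counting program was not given in the sources used here. Because the libraries do not mark strand, reads of overlapping or antisense genes cannot be told apart. The deposited table held 32520 genes and 36 columns, of which 21 were not used here. Of these genes 29285 have a symbol, 16608 from the name table, 4137 from gene pairs in the study's supplement and 8540 written in capitals, which are human-style names. No genome of the build of the counts was used, so no coordinates or sequences are given. In 6135 genes no count was seen in the 6 libraries.

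Skin input was compared with muscle input, 3 libraries each, in edgeR 4.0.16 (R 4.3.3, limma 3.58.1) on counts of genes kept by filterByExpr, with TMM scaling, no covariate, and a two-sided quasi-likelihood F-test with Benjamini-Hochberg adjustment. Genes passed at an adjusted p below 0.05 and a log2 fold change of 1.2 in size. SE values were derived from the fold change and its F statistic. The biological coefficient of variation was 0.259, and libraries of 1 tissue differed beyond sampling noise. The code was tested on simulated data. Both simulated tissues shared a profile apart from the changed genes, so that test cannot check the scaling between skin and muscle. TMM treats most genes as unchanged, and library totals alone, DESeq2 1.42.0, other filters, a fit of 9 input libraries, a replicate block and leaving out each library were tried as alternatives. Liver, heart and brain libraries and the pulldown libraries were not analysed here.

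The gene lists, and the tissues compared, were chosen with earlier results of these data known. Genes named were the 10 largest changes in each direction with a symbol, a mean of at least 10 CPM and no overlap between tissues, the 6 most expressed tested members of each list, members of the regulator and isoform lists, the 10 genes of largest share in each tissue, cell type markers, and members behind a count of 5 or fewer, and some genes under this rule are not reported here. The genes cdh1, col7a1, IFITM5, ryr1b, CASQ1, rhbg, fosab, fosb, mcm5, FASN, GPD1, TNMD, SCX and cd4-1 were singled out after their values were seen, as were the family sums and the exocrine pancreas, gonad, liver and intestine lists.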

Additional observations from a re-analysis of the deposited data

How the results depend on the processing

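Library totals alone in place of TMM gave 9986 genes higher in skin and 958 lower, against 3348 and 3003 by TMM. Keeping genes with at least 10 counts in each library gave 1541 higher and 2052 lower among 11309 tested genes, and the TREAT test against a log2 fold change of 1.2, added after seeing the data, gave 2270 higher and 1990 lower. DESeq2 (3305 and 2981), no filter on low counts (3869 and 3863), 1 fit of 9 input libraries (3390 and 3582), a minimum log2 fold change of 1 (3717 and 3412) and no minimum fold (4502 and 4236) stayed within 1.5 times of the main counts, as did the counts without ENSDARG00000080337 and the mitochondrial genes (3419 and 2923), also added after seeing the data. Leaving out 1 library gave 3305 to 3439 genes higher in skin and 2962 to 3200 lower. Of 207 genes examined singly, 185 were called, and 182 of the 207 kept their direction and their side of the limits in all 6 of these fits, while 15 lost the call in at least 1. Without 1 library the log2 fold change ranged from -0.19 to 0.26 for col1a1a, from -0.0824 to 0.38 for col1a2, from -3.84 to 0.21 for krt92 and from -0.68 to 0.60 for mpx, none of them called in the main comparison. By library totals alone 15 of the 207 changed sign, namely malat1 (1.04), SPARC (1.31), DCN (0.45), cldn5b (0.15), rgs5a (0.18), tpm3 (0.35), ENSDARG00000080337 (0.60), zgc:113348 (0.98), smyhc1 (0.49), TNNI1 (1.21), SOX10 (0.31), PHEX (0.24), DST (0.12), atp1b1b (0.25) and mpx (1.36). Among genes that kept their sign, 30 lost the call and 13 gained it. Of those that changed sign, cldn5b, rgs5a, tpm3, SOX10, PHEX, DST and atp1b1b also lost the call. SPARC, TNNI1 and mpx changed sign and were then called higher in skin. The sign changes follow from the shift of 1.54 between the scalings.

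Deviations of same-numbered libraries from the tissue means correlated at 0.0445, 0.128 and 0.183. Skin libraries 2 and 3 correlated best with their own number and skin library 1 with muscle library 2, at 0.0843, and since 1 of the 3 values is below 0.1 the shared numbers were not taken as pairs. With a replicate block 3317 genes were higher in skin and 2949 lower, and 200 of the 207 genes kept their direction and call, the calls of myl10, mt-co1, mt-co2, mt-co3, tpm3 and SOX10 being lost and krt92 gained. Depth limits the genes near the count filter, such as sp7, foxi3a, foxi3b and SPDEF, for which no difference was tested.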

Other observations

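RNA of organs outside skin and muscle was looked for in gene lists drawn up after the values had been seen. Exocrine pancreas genes took 0.0335, 0.147 and 0.600 counts per 10000 in skin libraries 1 to 3, against 5.87, 1.33 and 0.974 in muscle libraries 1 to 3, and 280, 116 and 402 in whole fish libraries 1 to 3. Gonad and sperm genes took 0.170, 0.180 and 0.213 counts per 10000 in skin, against 1.34, 0.0533 and 0.441 in muscle and 1.06, 1.49 and 0.562 in whole fish, with muscle library 2 the lowest and muscle library 1 the highest of muscle. Of 6 tested genes of that list, 5 were lower in skin. Liver genes took at most 0.0472 counts per 10000 in any skin or muscle library and none passed the count filter, against 141 to 343 in whole fish. Intestine genes took at most 0.0873 counts per 10000 in any skin or muscle library, against 45.7 to 140.0 in whole fish, and of 2 tested 1 was higher in skin.

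Whole fish input, the third kind of input tabled here, gave a scale for the family make-up. Cytoplasmic β-actins were 19.0, 17.8 and 16.4% of actin counts in whole fish, above every muscle library and below every skin library, and the same held for flna and flnb at 82.3, 78.6 and 80.6% of filamin counts. Per 100 counts of fast fibre genes, slow fibre genes had 4.73, 6.36 and 5.18 counts in whole fish, within the range of muscle and below every skin library.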
